A study of Rattus norvegicus with 30 samples.

Results

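The 26S proteasome degrades ubiquitin-tagged proteins, and its parts were read here in the livers of Wistar Han rats. Members were the genes whose platform symbol begins with Psma, Psmb, Psmc, Psmd, Psme or Psmf followed by a digit. Each had to have a probe set naming that gene alone, and of several such probe sets the one with the highest mean over the 30 arrays was read. The rule found 42 genes of the 14217 that could be read this way. Of these 42, 40 encode proteasome components, and Psmc3ip and Psme3ip1 share only the beginning of the symbol and encode interacting proteins. Psmb6, Psme3, Psma3l and Psmb6l1 were on probe sets naming several genes and were not analysed here. The 40 components were 7 alpha ring subunits, 6 constitutive beta ring subunits, 3 inducible beta subunits, 6 ATPases, 3 further base subunits, 8 lid subunits, 3 assembly chaperones, 3 activators and 1 inhibitor. All 42 genes passed the filter on low values, which asked for 5.74 or more on the log2 scale on at least 5 arrays.

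There were 6 groups of 5 livers, each of 1 Wistar Han animal. Livers came from pups of both sexes on postnatal day 22 and, at week 13, from adult males, and there was a control and a PBDE group of each kind. The PBDE animals received DE-71, a commercial flame retardant made of polybrominated diphenyl ethers, at 50 mg/kg by gavage in corn oil, and the labels give the controls a dose of 0 mg/kg. Dosing began in the dams on gestation day 6 and was continued directly in the pups to postnatal day 21, and the adults were dosed on 5 days per week after weaning. No transgene, deletion or other allele is named in the labels, and the pups were culled animals of the control and high dose groups. Liver markers were high on all arrays: the mean log2 level of 10 hepatocyte genes ran from 13.72 to 14.02. Cyp1a1, which the aryl hydrocarbon receptor induces, checked the labels and was 26.7-fold, 39.6-fold and 94.4-fold higher with PBDE in male pups, female pups and adults. The arrays carry a name prefix that splits them into 2 batches: both control groups of pups and the male PBDE pups are in the first, and female PBDE pups with both adult groups in the second.

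The catalytic core of the proteasome is a barrel of alpha and beta rings, in which Psmb5, Psmb7 and the Psmb6 product carry the peptide-cutting sites. The regulatory particle caps the barrel: its lid and ubiquitin receptors take up tagged proteins, and its ATPases unfold them. In cells stimulated by interferon, Psmb8, Psmb9 and Psmb10 replace the constitutive catalytic subunits and form the immunoproteasome, which favours peptides for MHC class I, and Psme1 with Psme2 form the activator PA28. The transcription factor Nfe2l1 is known to raise proteasome genes together when proteasome activity is short, and Nfe2l2 is known to act on part of them through antioxidant response elements.

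The DNA before 5 of these genes is shown because it carries letters of the antioxidant response element or of the interferon-stimulated response element. The 5 genes also stand for the groups whose values follow. Other components carried such letters too, and the choice was not blind to the values. Psme4, Psmd9 and Psmb5 passed in male pups, whereas Psma3 and Psmb2, which also hold antioxidant-type letters, did not and are not shown. The sequences are from RefSeq on the GRCr8 build, the 150 bases that end at the annotated gene start, in the direction of the gene. For the first 3, capitals mark the antioxidant response element letters TGACNNNGC, and for the last 2 the interferon-stimulated response element letters GAAA, any 2 bases and GAAA again, on either strand. Psme4 lies at chr14:108706493-108706642 (plus strand), Psmd9 at chr12:39018265-39018414 (minus strand) and Psmb5 at chr15:32047380-32047529 (minus strand). Psmb10 lies at chr19:50743293-50743442 (minus strand) and Psme2 at chr15:33052752-33052901 (minus strand).
Psme4: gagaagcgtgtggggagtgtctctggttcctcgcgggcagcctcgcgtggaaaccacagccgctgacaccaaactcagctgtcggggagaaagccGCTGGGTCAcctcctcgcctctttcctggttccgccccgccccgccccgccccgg
Psmd9: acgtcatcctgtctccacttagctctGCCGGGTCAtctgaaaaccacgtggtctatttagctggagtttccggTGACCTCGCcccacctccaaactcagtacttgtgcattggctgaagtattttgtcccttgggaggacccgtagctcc
Psmb5: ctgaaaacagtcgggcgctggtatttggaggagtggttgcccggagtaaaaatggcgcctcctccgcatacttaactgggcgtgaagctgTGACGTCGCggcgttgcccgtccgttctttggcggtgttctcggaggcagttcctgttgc
Psmb10: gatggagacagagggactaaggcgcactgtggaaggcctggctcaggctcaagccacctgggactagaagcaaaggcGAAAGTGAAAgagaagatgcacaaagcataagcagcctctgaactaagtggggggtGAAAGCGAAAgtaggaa
Psme2: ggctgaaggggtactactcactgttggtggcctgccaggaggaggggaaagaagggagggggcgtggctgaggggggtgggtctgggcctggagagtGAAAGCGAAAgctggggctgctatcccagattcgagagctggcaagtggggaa
The match before Psme4, the gene of the activator PA200, began 55 bases before the start, and that before the catalytic subunit Psmb5 began 60 bases before it. Psmd9, an assembly chaperone, held matches 124 and 77 bases before the start. Psmb10 held interferon-type matches 73 and 17 bases before the start, and Psme2 held 1 at 53 bases. A match describes letters and does not show that a factor binds there.

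RefSeq promoter windows of 300 bases, 250 before and 50 after the gene start, were found for 38 of the 42 genes, among them 36 of the 40 components; Psma7, Psmd6, Psmd12 and Psmd14 were not matched. The letters TGACNNNGC stood on either strand in 7 of the 36 component windows (19.4%): Psma3, Psmb2, Psmb5, Psmd1, Psmd3, Psmd9 and Psme4. Of all 33469 windows of that length, 12.1% held them. The interferon-stimulated response element letters stood in 6 of 36 (16.7%), those of Psma4, Psmb3, Psmb8, Psmb10, Psmd7 and Psme2, and in 3.92% of all windows. The CCAAT box stood in 19 of 36 (52.8%) against 37.5% of all windows. GCGTG, the core letters of the xenobiotic response element, stood in 19 of 36 (52.8%) against 29.7%. Over the 21851 windows of protein-coding genes alone, the shares of these motifs, in the order given, were 12.5%, 3.7%, 38.0% and 34.7%. Matches of different motifs overlapped in 1 component window, that of Psmb2, for TGACNNNGC and CCAAT.

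In male pups 12 proteasome genes rose with PBDE, spread over the core, the base, the lid, a chaperone and an activator. All 42 genes had a positive log2 difference, with a median of 0.288 against 0.0202 over all genes read, and 12 of the 42 passed the test at a false discovery rate of 0.01 (limma, 5 arrays per group). Over all genes read, 7.48% passed in either direction, 4.23% higher and 3.26% lower. No member passed in the lower direction, and 0 members were lower at an unadjusted p under 0.05, where 32 were higher. Counts at an unadjusted p, here and below, are given without the share of all genes read at that level. The genes that passed were the alpha subunits Psma4 and Psma7, the beta subunits Psmb4, Psmb5 and Psmb7, the base scaffolds Psmd1 and Psmd2, the lid subunits Psmd11, Psmd13 and Psmd14, the chaperone Psmd9 and the activator Psme4. In 14 of the 42 genes every PBDE array lay above every control array, where 11.9% of all genes read had groups that did not overlap in either direction. Psma7, Psmd2, Psmd9 and Psme4 passed under all 18 alternative settings. The count of 12 fell to 6 without PBDE replicate 4, to 7 without control replicate 2, 3 or 5, and to 4 when the model held the compared groups alone. In a whole-liver sample, fewer cells of a type and less RNA per cell cannot be told apart, and the same holds for more of either.

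**Figure D1:**
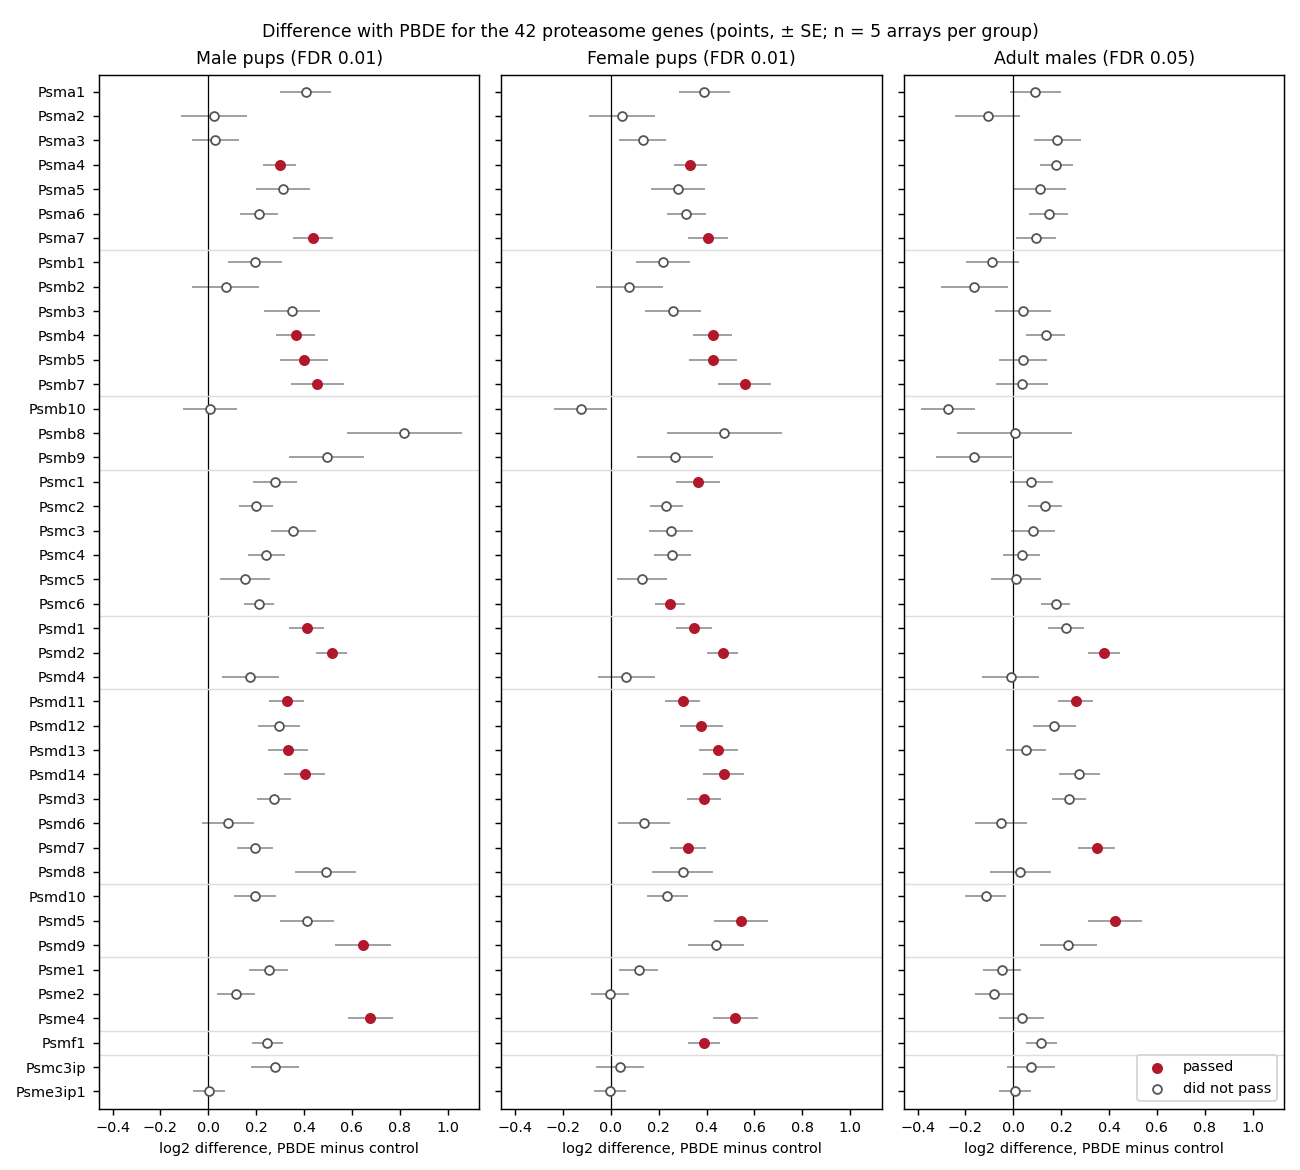
The log2 difference between PBDE and control livers is plotted for each of the 42 genes (points, with bars of ± 1 SE, n = 5 arrays per group), in male pups, female pups and adult males. Filled points passed the test (12, 18 and 4 genes); points stand mostly right of 0 in both pup panels, while in adults 32 of 42 are above 0 and most lie close to it.

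Psme4 encodes PA200, an activator that caps the core particle and is known for a role in histone degradation. In the male control pups its log2 values were 10.34, 10.36, 10.13, 10.06 and 10.26, and in the male PBDE pups 10.98, 10.92, 10.83, 11.01 and 10.78. Every PBDE array was above every control array. The log2 difference was 0.68 ± 0.09 (SE), or 1.6-fold, with an adjusted p of 1.22e-05. The same gene has a second probe set with a log2 difference of 0.52 ± 0.12 (adjusted p = 0.00486) and another at 0.08 ± 0.10 (adjusted p = 0.681), so its probe sets did not agree in size.

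Psmd2 is the base scaffold that docks the shuttle proteins carrying ubiquitin-tagged substrates. Its log2 values were 10.58, 10.63, 10.53, 10.47 and 10.55 in male control pups and 11.07, 11.04, 11.04, 11.20 and 10.98 in male PBDE pups. PBDE and control arrays did not overlap, and the values within each group lay close together. The log2 difference was 0.51 ± 0.07, or 1.43-fold, with an adjusted p of 3.95e-06, which was the lowest of the 42 genes in this comparison.

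Psmd9, also called p27, helps ATPases of the base assemble and is left out of the finished particle. Its log2 values in male control pups were 8.86, 8.54, 8.88, 8.86 and 8.56, and those in male PBDE pups were 9.46, 9.45, 9.39, 9.35 and 9.29. All PBDE arrays were above all control arrays. The log2 difference was 0.65 ± 0.12, or 1.56-fold (adjusted p = 4.14e-04). A second probe set of Psmd9, with lower values, had a log2 difference of 0.14 ± 0.08 (adjusted p = 0.323). The other chaperones had log2 differences of 0.41 ± 0.11, adjusted p = 0.015 for Psmd5 and 0.20 ± 0.09, adjusted p = 0.159 for Psmd10, and neither passed.

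Among the core subunits, Psma7 of the alpha ring had log2 values of 11.39, 11.22, 11.41, 11.51 and 11.38 in male control pups and 11.71, 11.82, 11.79, 12.05 and 11.73 in male PBDE pups. The groups did not overlap. Its log2 difference was 0.44 ± 0.08, adjusted p = 7.33e-04. Psmb7, which carries the trypsin-like site, had log2 values of 10.15, 9.85, 10.07, 10.07 and 9.95 in male control pups and 10.45, 10.60, 10.35, 10.73 and 10.24 in male PBDE pups, again without overlap. Its log2 difference was 0.46 ± 0.11, adjusted p = 0.00607. Psmb5, which carries the chymotrypsin-like site, had a log2 difference of 0.40 ± 0.10, adjusted p = 0.00817, and its highest control array, at 11.84, lay above the lowest PBDE array, at 11.81. Other probe sets of Psmb5, with lower values, had 0.14 ± 0.11 and 0.04 ± 0.08, and over the mean of its probe sets it did not pass. Psma2 and Psmb2, with log2 differences of 0.02 ± 0.14 and 0.07 ± 0.14, lay near 0 in the same rings.

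None of the 6 ATPases, which unfold substrates, passed in male pups. Their log2 differences ran from 0.15 (Psmc5) to 0.35 (Psmc3) and 5 of the 6 had an unadjusted p under 0.05 in limma. In the lid 3 of 8 passed: Psmd14, the deubiquitinase that removes ubiquitin chains (0.40 ± 0.09, adjusted p = 0.00216), Psmd11 (0.33 ± 0.07, adjusted p = 0.0034) and Psmd13 (0.33 ± 0.08, adjusted p = 0.00723). Psmd8 had a larger estimate, 0.49 ± 0.13, and an adjusted p of 0.0106, just outside the threshold. Other probe sets of Psmd14 had log2 differences of 0.42 ± 0.11 (adjusted p = 0.00809) and 0.25 ± 0.21 (adjusted p = 0.533). Over the mean of its probe sets the Psmd14 call was lost. In the base Psmd1, a scaffold like Psmd2, passed (0.41 ± 0.08, adjusted p = 4.33e-04), and the ubiquitin receptor Psmd4 did not (0.18 ± 0.12, adjusted p = 0.407).

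The inducible subunits did not pass in male pups. Psmb8, which takes the place of Psmb5, had the largest estimate of all members, 0.82 ± 0.24, with an adjusted p of 0.0251. Its log2 values were 9.29, 8.43, 8.51, 8.14 and 8.83 in male control pups and 9.35, 9.50, 9.03, 9.66 and 9.76 in male PBDE pups. The groups overlapped, because control replicate 1 lay above the lowest PBDE array. Psmb9, which takes the place of the Psmb6 product, had 0.49 ± 0.16, adjusted p = 0.0408, and Psmb10, which takes the place of Psmb7, had 0.01 ± 0.11, adjusted p = 0.984. The PA28 subunits had log2 differences of 0.25 ± 0.08, adjusted p = 0.041 for Psme1 and 0.12 ± 0.08, adjusted p = 0.415 for Psme2. Without male control replicate 1, Psmb8 (0.98, adjusted p = 0.00837), Psmb9 (0.63, adjusted p = 0.00767) and Psme1 (0.32, adjusted p = 0.00935) passed at 0.01.

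In female pups 18 of the 42 genes passed, all higher, and 39 of 42 had a positive log2 difference with a median of 0.300 against 0.0161 over all genes read. Of all genes read 6.13% passed in either direction, 3.95% higher and 2.18% lower. No member passed as lower, and at an unadjusted p under 0.05 there were 0 lower and 28 higher. In 18 genes the PBDE arrays all lay above the control arrays, against 10.9% of all genes with groups that did not overlap. Psma7, Psmb4, Psmb7, Psmd2, Psmd13 and Psmf1 passed under all 18 alternative settings. The count of 18 fell to 11 without control replicate 4 and to 8 when the model held the compared groups alone. The lid had 6 of 8 members passing, the beta ring 3 of 6, the ATPases 2 of 6 and the alpha ring 2 of 7. The PBDE arrays of this comparison lay in the second array batch and the controls in the first, so that batch and dose cannot be told apart in female pups; in male pups both groups lay in the first batch.

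**Figure D2:**
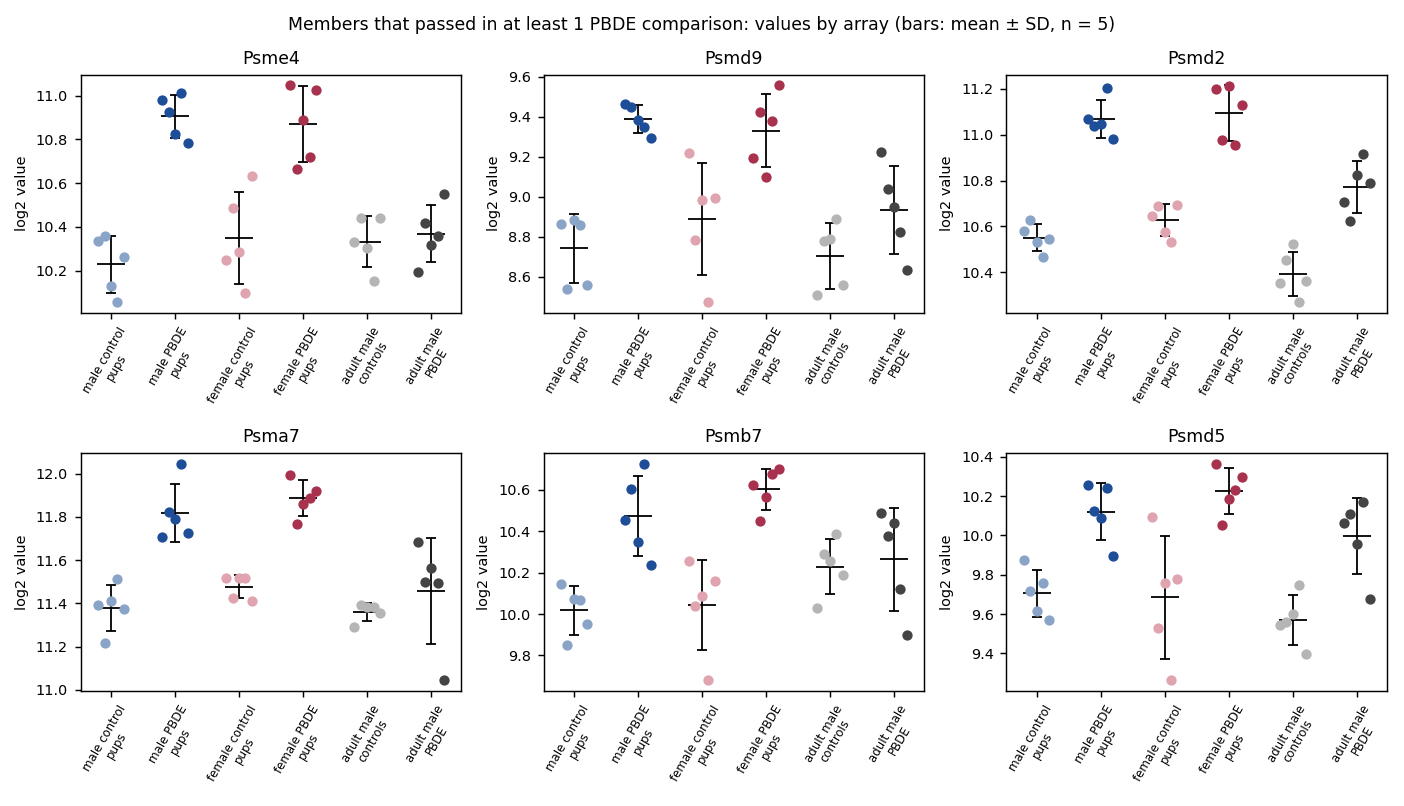
Log2 values by array are plotted for Psme4, Psmd9, Psmd2, Psma7, Psmb7 and Psmd5 in the 6 groups (points; bars give mean ± SD, n = 5). Psmd2 is higher with PBDE in all 3 comparisons without overlap, while Psme4 is higher in both pup comparisons and overlaps in adults.

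Psmd2 in female pups had log2 values of 10.65, 10.69, 10.57, 10.53 and 10.69 in controls and 11.20, 10.97, 11.21, 10.96 and 11.13 with PBDE. The groups did not overlap, and the log2 difference was 0.47 ± 0.07, adjusted p = 1.96e-05. Psme4 had log2 values of 10.25, 10.49, 10.28, 10.10 and 10.63 in controls and 11.05, 10.67, 10.89, 10.72 and 11.03 with PBDE. The lowest PBDE array was just above the highest control array, and the log2 difference was 0.52 ± 0.09, adjusted p = 4.46e-04. Psmb7 had log2 values of 10.25, 10.04, 10.09, 9.68 and 10.16 in controls and 10.62, 10.45, 10.57, 10.68 and 10.70 with PBDE. Its groups did not overlap, and its log2 difference was 0.56 ± 0.11, adjusted p = 0.00105. Psma7 had log2 values of 11.52, 11.43, 11.52, 11.52 and 11.41 in controls and 11.99, 11.77, 11.86, 11.89 and 11.92 with PBDE, without overlap, and a log2 difference of 0.41 ± 0.08, adjusted p = 0.00178.

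Psmf1, also called PI31, is a proteasome-binding protein known as an inhibitor of the core particle in the test tube. In female pups its log2 values were 10.25, 10.23, 10.28, 10.10 and 10.47 in controls and 10.62, 10.71, 10.70, 10.57 and 10.67 with PBDE. Here too all PBDE arrays were higher than all controls, and the log2 difference was 0.39 ± 0.07, adjusted p = 2.13e-04. In male pups its log2 values were 10.44, 10.34, 10.19, 10.40 and 10.33 in controls and 10.60, 10.56, 10.62, 10.52 and 10.62 with PBDE. The groups did not overlap there either, but the log2 difference of 0.25 ± 0.07 missed the threshold (adjusted p = 0.0134).

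Psmd5, the chaperone that holds ATPases of the base before they join, had log2 values of 10.10, 9.53, 9.76, 9.26 and 9.78 in female control pups and 10.37, 10.05, 10.19, 10.23 and 10.30 in female PBDE pups. Control replicate 1 overlapped the PBDE group, and the other control arrays lay below it. The log2 difference was 0.54 ± 0.11, adjusted p = 0.0018. Psmd9 had a log2 difference of 0.44 ± 0.12, adjusted p = 0.0159 in female pups and did not pass at 0.01. Its control arrays spread from 8.47 to 9.22 and its PBDE arrays from 9.10 to 9.56. The second probe set of Psmd9 had a log2 difference of 0.01 ± 0.08 here (adjusted p = 0.963).

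None of the inducible subunits passed in female pups. Psmb8 had log2 values of 8.88, 8.56, 9.03, 10.09 and 8.50 in controls and 9.65, 9.69, 9.11, 9.47 and 9.50 with PBDE. Control replicate 4 was the highest of these 10 arrays, and the groups overlapped. The log2 difference was 0.47 ± 0.24, adjusted p = 0.272. Psmb9 had 0.27 ± 0.16, adjusted p = 0.364, and Psmb10 had -0.13 ± 0.11, adjusted p = 0.597. The PA28 subunits Psme1 (0.12 ± 0.08, adjusted p = 0.46) and Psme2 (-0.00 ± 0.08, adjusted p = 0.986) did not pass, while the constitutive Psmb5 did (0.43 ± 0.10, adjusted p = 0.00574). Of the further genes that passed, Psmd13, Psmd14 and Psmd3 of the lid had log2 differences of 0.45, 0.47 and 0.39, and the ATPases Psmc1 and Psmc6 had 0.37 and 0.25. Over the mean of a gene's probe sets, Psmb5, Psmc6, Psmd7, Psmd14 and Psme4 did not pass in female pups.

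The lists of male and female pups shared 11 genes, which were 91.67% of the 12 that passed in males and 61.11% of the 18 in females. The overlap of the 2 lists over all genes read is not given here, so these shares have no comparison. The comparisons share no arrays, but both use the same estimate of each gene's spread from 1 model, so the lists are not independent. Psmd9 passed in males and not in females, and Psmc1, Psmc6, Psmd3, Psmd5, Psmd7, Psmd12 and Psmf1 passed in females and not in males. The test of the difference itself, sex by dose, passed for 0 of the 42 genes, and 0 had an unadjusted p under 0.05 in limma. Over all genes read 0% passed that test. Between males and females of the same dose, 0 of 42 genes passed in control pups and 0 in PBDE pups, with 3 (Psma5, Psmc6 and Psmd8) and 2 (Psmc6 and Psmd14) at an unadjusted p under 0.05, all lower in males. Over all genes read 0.0422% passed in controls, 0.0141% higher and 0.0281% lower in males, and 0.0563% passed with PBDE, 0.0281% in each direction. The sexes did not overlap for 1 member in controls, against 1.55% of all genes read, and for 0 with PBDE, against 1.06%. Of the pup groups, only female PBDE pups lay in the second batch. Batch therefore cannot be told apart from the sex-by-dose difference or from the sex difference with PBDE.

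Among the 7 components whose window held TGACNNNGC, 4 passed in male pups (Psmb5, Psmd1, Psmd9 and Psme4), and 6 of the 29 other components with a window did. In female pups 4 of the 7 passed (Psmb5, Psmd1, Psmd3 and Psme4) and 11 of the 29 others. Psma3 and Psmb2 held the letters and had log2 differences of 0.03 ± 0.10 and 0.07 ± 0.14 in male pups. Of the 19 windows with GCGTG, 6 belonged to genes that passed in male pups, against 4 of the 17 without it. In female pups the counts were 7 of 19 with it and 8 of 17 without it.

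In adult males 4 of the 42 genes passed at a false discovery rate of 0.05, all higher with PBDE: Psmd2, Psmd5, Psmd7 and Psmd11. Over all genes read 3.9% passed in either direction, 1.86% higher and 2.04% lower. The median log2 difference was 0.0734 against 0.00915 over all genes read, with 32 of 42 genes positive. No member passed as lower; Psmb10 had an unadjusted p under 0.05 in that direction (-0.27 ± 0.11, adjusted p = 0.202), and 9 did in the higher direction. PBDE arrays lay above the controls without overlap in 5 genes (Psmd1, Psmd2, Psmd3, Psmd7 and Psmd11), where 4.59% of all genes had groups that did not overlap. Both adult groups lay in the second batch. Psmd2 passed under all 18 alternative settings, whereas Psmd5 and Psmd11 were each lost in 7 of the 10 fits that left out 1 array. The count of 4 fell to 2 without control replicate 1 or 3, without PBDE replicate 2 or 4, and when the model held the compared groups alone, and it rose to 8 when quantile normalization was repeated.

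Psmd2 had log2 values of 10.35, 10.46, 10.52, 10.27 and 10.36 in adult controls and 10.71, 10.62, 10.82, 10.92 and 10.79 in adult PBDE males. Again the groups did not overlap, as in both pup comparisons, and the log2 difference was 0.38 ± 0.07, adjusted p = 0.00106, or 1.3-fold. Psmd7, the lid subunit that pairs with the deubiquitinase Psmd14, had log2 values of 10.17, 10.19, 10.27, 10.17 and 10.06 in adult controls and 10.55, 10.48, 10.47, 10.53 and 10.57 with PBDE. The groups did not overlap, and the log2 difference was 0.35 ± 0.08, adjusted p = 0.00824. A second probe set of Psmd7, with lower values, had a log2 difference of -0.01 ± 0.12, and over the mean of its probe sets Psmd7 did not pass (0.17, adjusted p = 0.199).

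Psmd5 had log2 values of 9.54, 9.56, 9.60, 9.75 and 9.40 in adult controls and 10.07, 10.11, 9.95, 10.17 and 9.68 with PBDE. PBDE replicate 5 lay inside the control range and the other 4 PBDE arrays above it, and the log2 difference was 0.43 ± 0.11, adjusted p = 0.0323. Psmd11, a lid subunit, had log2 values of 11.25, 11.33, 11.20, 11.13 and 11.34 in adult controls and 11.43, 11.54, 11.42, 11.64 and 11.53 with PBDE. Its groups did not overlap, and its log2 difference was 0.26 ± 0.07, adjusted p = 0.0472. A second probe set of Psmd11 passed in all 3 dose comparisons, with log2 differences of 0.40 in male pups, 0.50 in female pups and 0.23 in adults. Its remaining probe set passed in none of them, with 0.04, 0.23 and 0.08 (adjusted p = 0.808, 0.0819 and 0.684). Over the mean of the Psmd11 probe sets the adult difference was 0.19 and the call was lost (adjusted p = 0.0514).

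The inducible subunits, PA28, the constitutive catalytic subunits and the inhibitor did not pass in adults. The log2 differences were 0.01 ± 0.24 for Psmb8, -0.16 ± 0.16 for Psmb9 and -0.27 ± 0.11 for Psmb10. They were 0.04 ± 0.10 for Psmb5 and 0.04 ± 0.11 for Psmb7, -0.05 ± 0.08 for Psme1 and -0.08 ± 0.08 for Psme2, and 0.12 ± 0.07 for Psmf1. Their adjusted p ran from 0.202 (Psmb10) to 0.995 (Psmb8).

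Psme4, which rose in both pup comparisons, had log2 values of 10.33, 10.44, 10.30, 10.15 and 10.44 in adult controls and 10.19, 10.42, 10.32, 10.36 and 10.55 in adult PBDE males. The groups overlapped, and the lowest PBDE array lay within the control range. The mean of the PBDE arrays was near that of the controls, and the log2 difference was 0.03 ± 0.09, adjusted p = 0.904. The dose difference of Psme4 was smaller in adult than in pup males by 0.64 ± 0.13 on the log2 scale, and this was the 1 member of 42 whose age-by-dose test passed (adjusted p = 0.00844), where 2.48% of all genes read passed, 1.13% in the higher and 1.35% in the lower direction. The 42 members had a median age-by-dose difference of -0.204 against -0.0111 over all genes, and 38 of 42 were negative. In this direction 13 had an unadjusted p under 0.05. Psmb7 (-0.42 ± 0.15, adjusted p = 0.18), Psmb5 (-0.36 ± 0.14, adjusted p = 0.218), Psma7 (-0.34 ± 0.12, adjusted p = 0.147) and Psmb9 (-0.66 ± 0.22, adjusted p = 0.136) did not pass after adjustment. The second probe set of Psme4 had a log2 dose difference of 0.52 in male pups, 0.26 in female pups (adjusted p = 0.231) and -0.18 in adults, and an age-by-dose difference of -0.71 ± 0.17 (adjusted p = 0.0286). In its remaining probe set the age-by-dose difference was 0.07 ± 0.13 (adjusted p = 0.879). Pups and adults lay in part in different batches, so that the part of the batch in an age difference cannot be told apart, while each of the dose differences it compares was taken within 1 batch.

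Averaged over the 40 components, an array's mean log2 value ran from 10.20 to 10.43 in male control pups and from 10.47 to 10.74 in male PBDE pups. It ran from 10.33 to 10.51 in female control pups and from 10.57 to 10.78 in female PBDE pups. In adults it ran from 10.33 to 10.54 in controls and from 10.30 to 10.66 with PBDE. The pup groups therefore did not overlap within a sex, and the adult groups did.

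The lowest adult PBDE value was that of replicate 5, which also had the lowest mean correlation with its group of the 30 arrays, 0.988. It was the lowest of its group for 27 of the 40 components and differed from the other 4 arrays by a median of -0.213, from -0.817 for Psmb2 to 0.226 for Psme4. Its excess of the 3' over the 5' Gapdh probe set, a control on the array which grows when RNA is shortened, was 2.25 where its group's mean was 1.17 ± 0.62 (SD, n = 5). Without this array 4 members passed in the adult comparison, Psmd2, Psmd5 and Psmd7 as before, while Psmd11 no longer passed (adjusted p = 0.0928) and Psmd14 did (adjusted p = 0.0361); 35 of 42 were positive and the median was 0.139.

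The Gapdh difference was also larger with PBDE in the other comparisons: 2.09 ± 0.65 against 1.61 ± 0.33 in male pups and 1.93 ± 0.30 against 1.26 ± 0.50 in female pups, and adult controls had 0.619 ± 0.18. With it as a covariate, 18 members passed as higher in male pups, 20 in female pups and 3 in adults, and the median log2 differences were 0.322, 0.350 and 0.139.

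**Figure D3:**
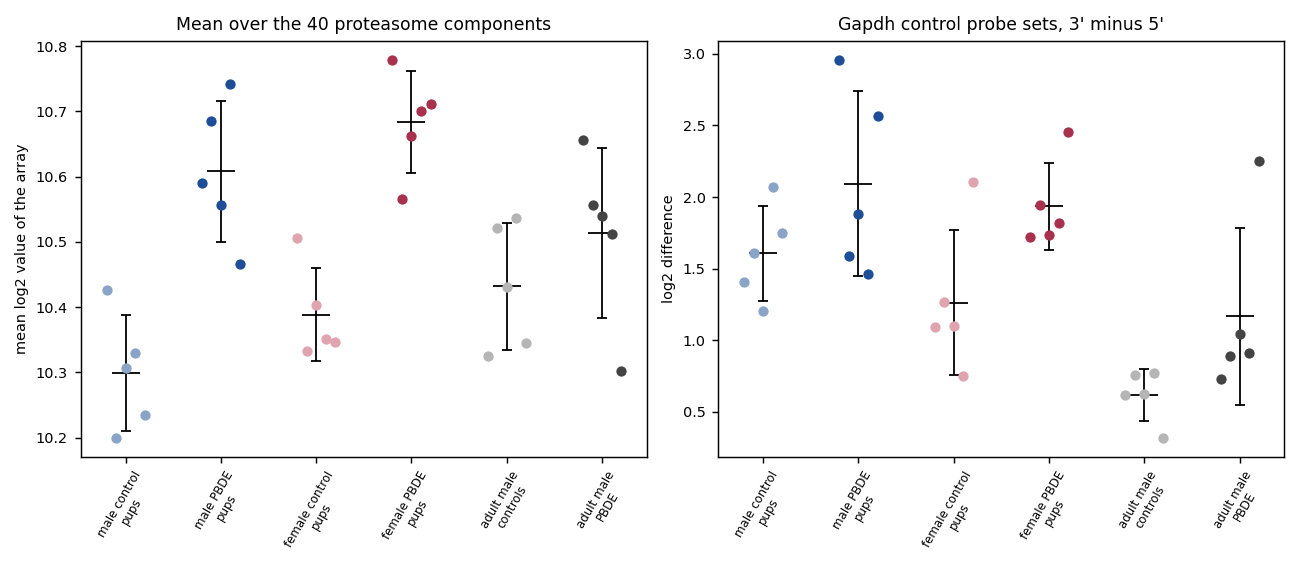
For each array the mean log2 value over the 40 proteasome components (left) and the log2 difference of the Gapdh control, 3' minus 5' (right) are plotted by group (points; bars give mean ± SD, n = 5). The pup groups with PBDE lie above their controls in the left panel, and adult PBDE replicate 5 has the lowest component mean and the highest Gapdh difference of its group.

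Markers of other cells moved with dose in part. Of 10 Kupffer cell and macrophage markers, C1qa (-0.71) and Aif1 (-0.77) were lower in male PBDE pups, 0 passed in female pups and Aif1 was lower in adults (-0.64). The mean level of this list ran from 8.70 to 8.90 in male PBDE pups and from 9.08 to 9.35 in male control pups. Of 10 hepatocyte markers Cps1 was lower in male (-0.29) and female pups (-0.31), and the list's mean ran from 13.72 to 13.87 in male PBDE pups and from 13.92 to 14.02 in their controls. Of 12 lymphocyte markers 0 passed in either pup comparison, and of 8 erythroid markers 0 passed in any dose comparison; 8 of the 12 and 3 of the 8 lay below the array median in all groups. At an unadjusted p under 0.05 in limma, 5 of the 10 Kupffer cell markers were lower in male pups, 1 in female pups and 8 in adults. In adults this list had a median log2 difference of -0.409, and its mean level ran from 8.41 to 9.13 with PBDE and from 8.90 to 9.57 in controls. At that level 5 of the 10 hepatocyte markers were lower in male pups, 5 in female pups and 1 in adults, and 1 was higher in female pups. Of the lymphocyte markers 1 passed in adults, Cd8a, which was lower (-0.52) and lay below the array median in all groups. At the unadjusted level 2 lymphocyte markers were higher in male pups, and 1 was higher and 1 lower in female pups. For erythroid markers this held for 1 in male pups, 6 in female pups and 0 in adults, all higher with PBDE, and the list's mean ran from 6.20 to 6.49 in female PBDE pups and from 5.62 to 6.03 in female control pups. The part of these markers in the proteasome differences was not tested.

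Of 23 accessory genes measured, for shuttles, deubiquitinases, assembly factors and partners, 5 were higher in male pups, 6 in female pups and 5 in adults, and 1 was lower in adults; most did not pass. Ubqln2, a shuttle that brings ubiquitin-tagged proteins to the particle, was higher in all 3 comparisons, by 0.71 ± 0.09 in male pups, 0.75 ± 0.09 in female pups and 0.59 ± 0.09 in adults (adjusted p = 3.20e-06, 1.53e-06 and 1.78e-04). Adrm1, a ubiquitin receptor of the base, rose by 0.43, 0.53 and 0.33, and Usp14, a deubiquitinase bound to the base, by 0.41, 0.53 and 0.32. Txnl1, a thioredoxin-like protein bound to the regulatory particle, rose by 0.40, 0.50 and 0.41. Psmg3, a core assembly chaperone, passed in female pups (0.57) and adults (0.52), the unfoldase Vcp in male pups (0.29) and its cofactor Ufd1 in female pups (0.43). Akirin2, a nuclear import factor of proteasomes, was lower in adults (-0.74, adjusted p = 0.0423).

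Of 10 measured genes for ubiquitin supply and proteasome regulation, 3 were higher in male pups, 3 in female pups and 2 in adults, and 0 lower, where 1 in female pups was lower at an unadjusted p under 0.05. Nfe2l1 was higher in all 3, by 0.43 ± 0.08, 0.53 ± 0.08 and 0.52 ± 0.08 (adjusted p = 3.95e-04, 2.91e-05 and 1.34e-04). Nfe2l2 passed in male (0.54) and female pups (0.80) and not in adults (0.32 ± 0.11, adjusted p = 0.137). Keap1, the adaptor that marks the Nfe2l2 protein for degradation, was higher in all 3 (0.42, 0.35 and 0.55). Of 10 genes of proteotoxic stress, Chac1 was lower in male pups (-0.87) and 0 passed in female pups. In adults Sqstm1 was higher (0.45) and Hspb1 lower (-0.83). At an unadjusted p under 0.05 in limma, 5 were lower and 0 higher in male pups. In female pups 1 was lower and 2 higher, and in adults 2 were lower and 3 higher. The list's mean ran from 8.57 to 8.73 in male PBDE pups and from 8.81 to 9.08 in male control pups.

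In control males 2 inducible subunits had the largest differences between adults and pups of the 42 genes. Psmb8 was 3.86-fold and Psmb9 2.52-fold higher in adults. Of the 42 genes 8 were higher and 3 lower in adults at a false discovery rate of 0.05, while 29.5% of all genes read passed in either direction, 10.9% higher and 18.6% lower. The median log2 difference of the members was 0.0274, from 0.00239 to 0.0464 in the fits that left out 1 array. Its sign turned with the Gapdh difference of 3' minus 5' signal as a covariate (-0.0646, 15 of 42 positive) and when quantile normalization was repeated (-0.00242). Groups did not overlap in 10 genes, 6 of them higher in adults and 4 lower, against 21.1% of all genes. Adult and pup controls lay in different batches, so that age and batch cannot be told apart. The Gapdh 3' minus 5' difference was 1.61 ± 0.33 in the pups and 0.619 ± 0.18 in the adults (SD, n = 5). With it as a covariate 4 members passed as higher, and Psmb8 (1.75 ± 0.29) and Psmb9 (1.32 ± 0.19) were among them. The count of 3 lower genes was 5 when quantile normalization was repeated.

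Psmb8 had log2 values of 9.29, 8.43, 8.51, 8.14 and 8.83 in male control pups and 10.37, 10.82, 10.27, 11.32 and 10.17 in adult male controls. Every adult array was above every pup array, and the log2 difference was 1.95 ± 0.24, adjusted p = 4.68e-07. Psmb9 had log2 values of 9.37, 8.85, 8.63, 8.58 and 8.76 in male control pups and 9.96, 10.64, 9.99, 10.40 and 9.88 in adult male controls. Its groups did not overlap, and its log2 difference was 1.34 ± 0.16, adjusted p = 2.33e-07. Psmb10, the remaining inducible subunit, had -0.14 ± 0.11 (adjusted p = 0.426) and did not pass. Psme1 (0.42 ± 0.08, adjusted p = 2.62e-04) and Psme2 (0.27 ± 0.08, adjusted p = 0.0135) of PA28 were higher in adults. A second probe set of Psme1, with lower values, gave -0.15 ± 0.09 (adjusted p = 0.255). Over the mean of its probe sets the Psme1 call was lost (0.13, adjusted p = 0.173). Psme2 was lost in 4 of 18 alternative settings, among them the Gapdh covariate (0.18, adjusted p = 0.245). The further genes higher in adults were Psmd8 (0.60), Psmd10 (0.45), Psmb3 (0.37) and Psmd1 (0.25). Under the Gapdh covariate Psmd10 still passed (0.50, adjusted p = 0.00102). Psmd8 (0.27, adjusted p = 0.117), Psmb3 (0.09, adjusted p = 0.684) and Psmd1 (0.16, adjusted p = 0.252) did not. In the main fit the constitutive Psmb5 (0.09 ± 0.10) and Psmb7 (0.21 ± 0.11), the activator Psme4 (0.10 ± 0.09) and the inhibitor Psmf1 (0.03 ± 0.07) did not pass. A second probe set of Psme4 did pass, at 0.42 ± 0.12 (adjusted p = 0.0122), and its remaining one did not, at 0.05 ± 0.10 (adjusted p = 0.783).

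Psma3, an alpha ring subunit, was lower in adults. Its log2 values were 8.79, 8.95, 8.74, 8.93 and 9.26 in male control pups and 8.30, 8.32, 8.60, 8.27 and 8.22 in adult male controls. The groups did not overlap, and the log2 difference was -0.59 ± 0.10, adjusted p = 4.09e-05. Psmd7 (-0.38 ± 0.08, adjusted p = 3.52e-04) and Psmd3 (-0.27 ± 0.07, adjusted p = 0.00656) of the lid were also lower. Under the Gapdh covariate Psmd3 no longer passed (-0.20, adjusted p = 0.124). The probe sets of Psmd7 differed in direction: a second one gave 0.32 ± 0.12 (adjusted p = 0.0629), and over their mean the difference was -0.03 and the call was lost (adjusted p = 0.79).

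**Figure D4:**
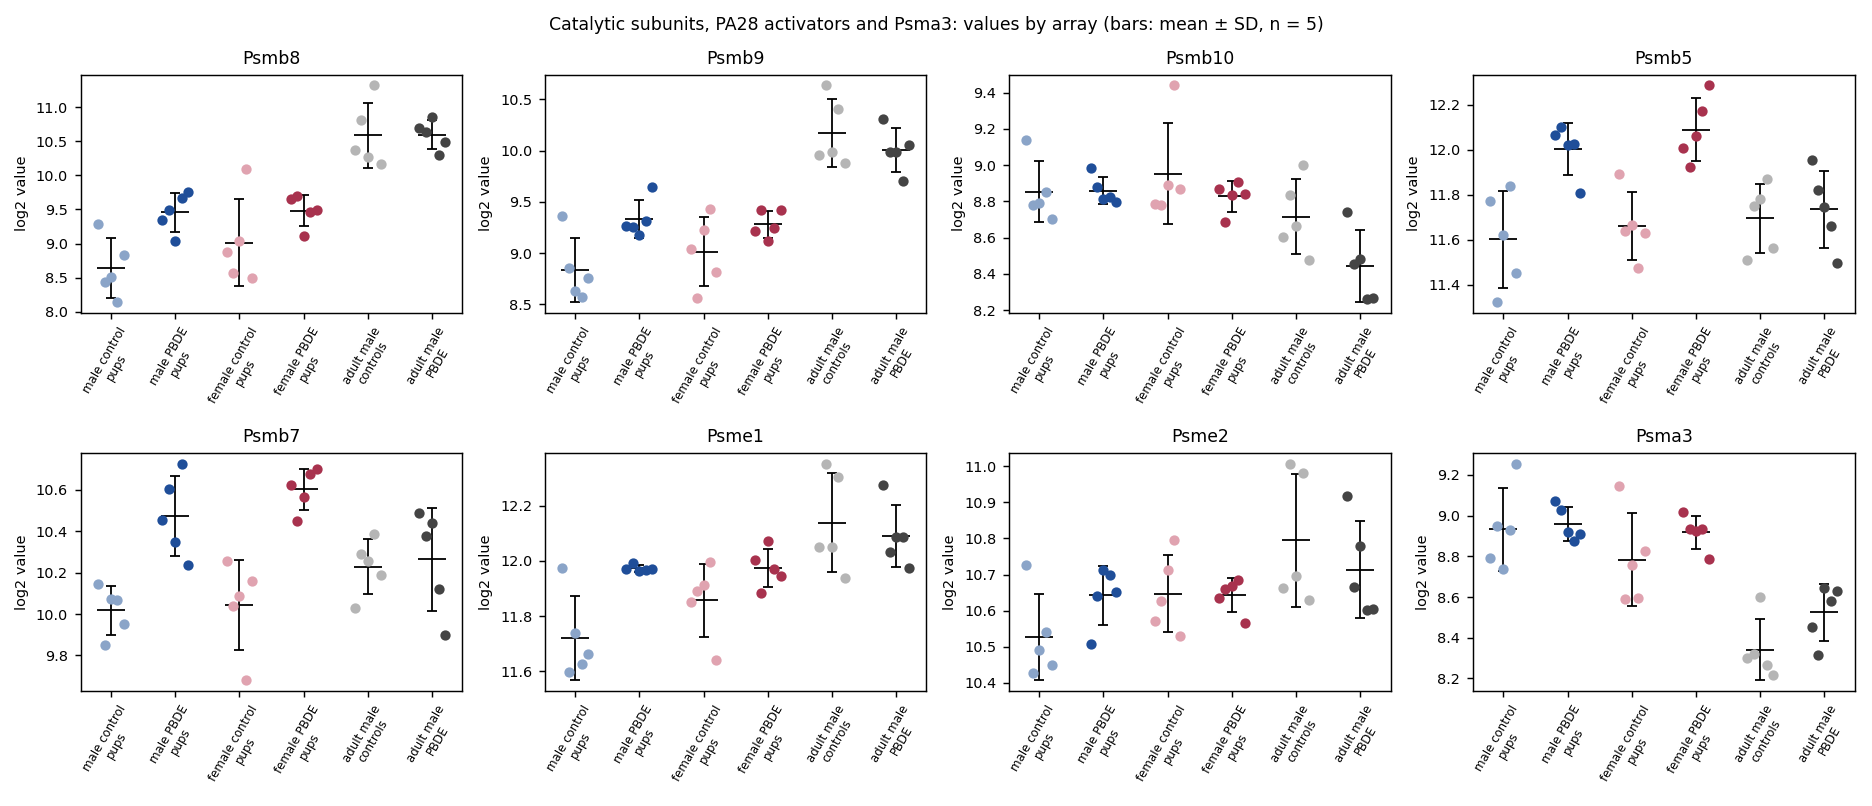
Log2 values by array are plotted for the inducible subunits Psmb8, Psmb9 and Psmb10, the constitutive catalytic subunits Psmb5 and Psmb7, the PA28 subunits Psme1 and Psme2, and Psma3 in the 6 groups (points; bars give mean ± SD, n = 5). Psmb8 and Psmb9 lie higher in both adult groups than in all 4 pup groups, and Psma3 lies lower in adult than in pup males.

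In PBDE males 2 genes were higher in adults than in pups and 13 lower, where 18.8% of all genes read passed, 5.2% higher and 13.6% lower. The median log2 difference of the members was -0.127. It was -0.243, with 5 of 42 positive, under the Gapdh covariate, -0.192 without male PBDE pup replicate 5 and -0.235 in adult PBDE males against female PBDE pups, which lay in 1 batch. Psmb8 (1.14 ± 0.24, adjusted p = 0.00131) and Psmb9 (0.68 ± 0.16, adjusted p = 0.00331) were again higher. Their log2 values in adult PBDE males were 10.70, 10.63, 10.86, 10.30 and 10.49 for Psmb8, and 10.31, 9.98, 9.99, 9.71 and 10.06 for Psmb9. All of these lay above the male PBDE pups, which reached 9.76 for Psmb8 and 9.65 for Psmb9. Among the lower genes were Psme4 (-0.54 ± 0.09, adjusted p = 1.49e-04), Psmb10 (-0.42 ± 0.11, adjusted p = 0.0108), Psma3 (-0.44 ± 0.10, adjusted p = 0.00247) and Psmd2 (-0.29 ± 0.07, adjusted p = 0.00243). Groups did not overlap in 11 genes, 2 higher and 9 lower, against 13.4% of all genes. With the compared groups alone in the model, 8 genes passed as lower.

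Adult PBDE males and female PBDE pups share the second batch, and this comparison differs in sex as well as age. In it 2 members were higher and 20 lower in adults, against 21.5% of all genes read, 6.23% higher and 15.2% lower. Groups did not overlap in 16 members, against 15.7% of all genes. The higher ones were Psmb8 (1.11 ± 0.24, adjusted p = 0.0014) and Psmb9 (0.73 ± 0.16, adjusted p = 0.00148), so the adult excess of both was measured within a batch too. The age-by-dose differences of Psmb8 (-0.81 ± 0.34, adjusted p = 0.257) and Psmb9 (-0.66 ± 0.22, adjusted p = 0.136) did not pass.

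Genes of MHC class I peptide loading were higher in adult than in pup controls in 7 of 11 measured members, with 0 lower, also at an unadjusted p under 0.05. They included the peptide transporters Tap1 (1.09 ± 0.17) and Tap2 (0.61 ± 0.10) and the light chain B2m (0.63 ± 0.07, adjusted p = 4.92e-08). In PBDE males 5 of 11 were higher. Of 17 interferon response genes 9 were higher and 1 lower in adult controls, among them Irf7 (1.15 ± 0.22) and Oas1a (1.54 ± 0.29), and Rsad2 was the lower one (-1.14 ± 0.21). Of the lymphocyte markers 4 of 12 were higher in adult controls: Cd8a (0.87), Cd74 (0.93), Nkg7 (0.36) and Gzmb (0.30). The list's mean ran from 5.37 to 5.56 in male control pups and from 5.63 to 5.82 in adult controls. Of the markers just named, Cd8a, Nkg7 and Gzmb were below the array median in all groups, as were the T cell markers Cd3d and Cd3e. Of 8 erythroid markers 4 were lower in adult controls, and the list's mean ran from 4.95 to 5.58 there and from 5.78 to 6.44 in pups. The part of these cells in the age differences of the proteasome genes was not tested.

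The same lists were read against dose. Tapbp, the tapasin that loads MHC class I, rose in male (0.58 ± 0.09) and female pups (0.45 ± 0.09), the 1 gene of 11 that passed in each. Of the interferon list 2 of 17 passed in male pups, Cxcl9 (3.41 ± 0.34) and Cxcl10 (1.09 ± 0.22). In female pups 4 passed, Cxcl9, Cxcl10, Oas1a and Rsad2, and in adults 1, Cxcl11 (0.67 ± 0.12). At an unadjusted p under 0.05 in limma, 6 of the 11 MHC class I genes were higher in male pups, 4 in female pups and 1 in adults. Of the 17 interferon response genes, 4 were higher and 1 lower in male pups. In female pups 8 of them were higher and 0 lower, and in adults 1 was higher and 2 lower. The mean level of the MHC class I list ran from 9.65 to 9.80 in male PBDE pups and from 9.26 to 9.61 in male control pups, without overlap. That of the interferon list ran from 7.18 to 7.58 in female PBDE pups and from 6.56 to 6.84 in female control pups, also without overlap. The part of these lists in the proteasome differences was not tested. Of the 6 components with the interferon-stimulated response element letters in their window, Psmb3, Psmb8 and Psme2 were higher in adult controls than in pups, against 5 of the 30 without it.

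Within groups, most proteasome genes varied together from liver to liver. Over the 30 arrays, after the group means were taken away, the mean Pearson correlation between pairs of the 40 components was 0.364, where the mean over all pairs of genes read was 0.0137. The components lay above most genes in level, and they were not compared with genes of like level. It was 0.740 among the 6 constitutive beta subunits and 0.694 among the 6 ATPases, and 0.378 and 0.386 in the alpha ring and the lid. Psma5 and Psmb2 were the most alike pair, at 0.952. Psmb8, Psmb9, Psmb10, Psme1 and Psme2 had a mean of 0.713 among themselves and of 0.146 with the other components. Psme4 and Psma3 had the lowest mean correlation with the other components, -0.0357 and -0.0206. Each array also shares its labelling and its RNA quality across genes, and without adult PBDE replicate 5 the mean over the components was 0.349.

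**Figure D5:**
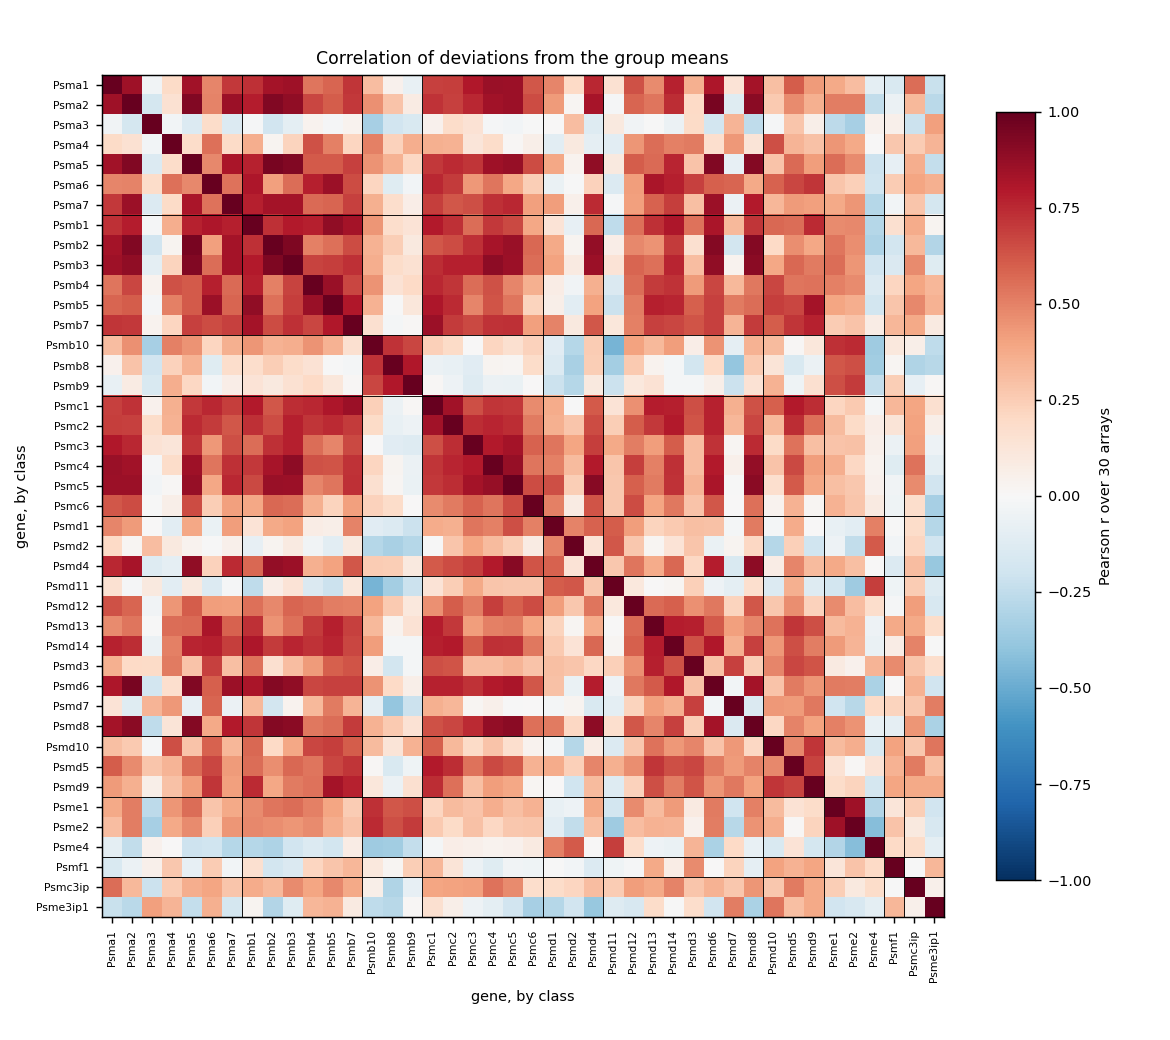
The Pearson correlation of deviations from the group means over 30 arrays is coloured for each pair of the 42 genes, ordered by class, with lines between classes. The beta ring and the ATPases form dark blocks (means 0.740 and 0.694), Psmb8, Psmb9 and Psmb10 correlate with Psme1 and Psme2, and Psme4 and Psma3 are pale against most others.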

How the data were processed

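From each liver 50 ng of total RNA was labelled from the 3' end and measured on 1 of 30 Affymetrix rat expression arrays, per the labels' protocols. The authors' deposited log2 values come from RMA, per the submitters' processing notes, with a version not given in the sources used here. No value column was left unused. After 57 control probe sets were set aside, 31042 were tested: 20826 name 1 gene in the platform annotation, 436 several and 9780 none. Symbols were updated for 20758.

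Groups came from the labels. Each pup had a different dam, as had the adults within a dose group, so p-values rest on separate animals. All 30 arrays entered 1 linear model of the 6 group means (limma 3.58.1, R 4.3.3, eBayes), with Benjamini-Hochberg adjustment over all probe sets; the false discovery rate was 0.01 for comparisons among pups and 0.05 otherwise. Errors of log2 differences are SE, and those of group means SD (n = 5). "Passed" and "called" mean past this threshold. The fit was tested on simulated data. The members and the 9 lists of other genes (128 genes, 111 read) were chosen with earlier results of these data known. Named in each comparison were up to 6 members with the largest change in each direction among those that passed, the inducible and constitutive catalytic subunits, the activators and the inhibitor, up to 4 passing genes of each other list, and Cyp1a1 once; other names were chosen after their values were seen. Array number, with 5 arrays a group, limits precision. Promoter sequences are RefSeq's (GRCr8). Alternatives were a filter on low values, repeated quantile normalization, a replicate block, the compared groups alone, a trended robust eBayes, array weights, a Gapdh 3' minus 5' covariate, the mean of a gene's probe sets, the within-batch comparison and leaving out each array. Replicate numbers do not name a shared dam.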

Additional observations from a re-analysis of the deposited data

Results flagged for a closer look

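Single arrays stood apart from the other 4 of their group in 13 of the 252 groups of 5 log2 values checked for the 42 genes, where chance flags about 1 in 20 groups. Of these, 4 were low values of adult PBDE replicate 5: Psma5 at 10.678, Psmb2 at 10.5152, Psmd1 at 9.74521 and Psmd6 at 9.55024, where the other 4 arrays began at 11.1945, 11.2594, 9.88677 and 10.1248. This is the array with the largest Gapdh 3' minus 5' difference of the adult PBDE group, 2.25.

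In male PBDE pups, replicate 5 was low for Psmb5 (11.8086) and high for Psmb9 (9.64896), replicate 4 was high for Psmd11 (11.771) and replicate 2 was high for Psme1 (11.9921), where the rest lay between 11.9639 and 11.9718. In female control pups, replicate 4 was high for Psmb10 (9.43989). In female PBDE pups, replicate 2 was low for Psmb4 (12.2792) and replicate 1 high for Psmd4 (9.81955). In adult controls, replicate 3 was high for Psma3 (8.59803) and replicate 1 low for Psmd8 (10.8747).

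The dose difference of Psme4 differed between adult and pup males by -0.6424 on the log2 scale by the age-by-dose test (limma, adjusted p = 0.00844). Over all 28 alternatives of this test the adjusted p ran from 0.00523 to 0.0443.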

How the results depend on the processing

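Over 7686 refits of single members, 7414 kept their side of the threshold, 186 no longer passed, 84 newly passed and 2 reversed. Members that did not pass could change sign and still be counted among the 7414. Psma3 in male pups did so with the Gapdh covariate (-0.01). Both reversals were in adult against pup PBDE males with the Gapdh covariate, where Psmb2 became -0.32 (adjusted p = 0.0375) and Psmd4 -0.30 (adjusted p = 0.0393); the cause was not tested. With the compared groups alone, which leaves fewer arrays to estimate the spread, 4 members passed as higher in male pups, 8 in female pups and 2 in adults, and 8 as lower in adult against pup PBDE males. Repeated quantile normalization gave 8 higher in adults and 5 lower in adult against pup controls; the mean of a gene's probe sets gave 2 higher in adults. The Gapdh covariate left 4 higher in adult against pup controls, and the within-batch comparison gave 20 lower in adults; the cause was not tested.

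Leaving out 1 array gave 6 to 17 higher in male pups, 11 to 18 in female pups and 2 to 4 in adults. It gave 7 to 8 higher and 3 to 4 lower in adult against pup controls, 2 higher and 10 to 15 lower in adult against pup PBDE males, and 1 to 2 lower for age by dose. The other counts of this kind stayed at 0. The median dose difference ran from 0.2588 to 0.3357 in male pups, 0.2677 to 0.3502 in female pups and 0.0354 to 0.1393 in adults.

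The replicate numbers were not used to pair the arrays in the main fit. Same-number arrays had a mean residual correlation of 0.00417, and 18 of 75 such pairs were above 0.1. Of the 30 arrays, 11 correlated best with their own number. No count expected without pairing is given here. With the replicate block 14, 17 and 4 members passed as higher in male pups, female pups and adults, 8 and 3 as higher and lower in adult against pup controls, 2 and 12 in PBDE males, and 1 as lower for age by dose. The number of arrays, 5 per group, limits which small differences can pass.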
